A study of Mus musculus with 12 samples.

Results

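The annexin genes are described here in type 3 innate lymphoid cells (ILC3s) of the mouse small intestine. The set held 9 genes, Anxa1, Anxa2, Anxa3, Anxa4, Anxa5, Anxa6, Anxa7, Anxa11 and Anxa13, taken by name from an expression table of 23284 genes that listed 12 annexin genes in all. The names were drawn up with the expression values known, so the levels below are a description, and the statistics printed beside them lend no separate support to the choice. The members were chosen by name and by their FPKM in the 12 libraries. FPKM is the number of sequenced fragments scaled to the length of the transcript and to the depth of the library, so levels can be set side by side between genes. All 9 genes reached 1 FPKM in 3 or more libraries and so entered the test across all genes.

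The mice were of the hairless HR-1 strain and were 18 weeks old. Offspring nursed by mothers on a normal diet formed the ND groups, and offspring nursed by mothers whose chow contained added palmitic acid, a long-chain saturated fatty acid, formed the PA milk groups. Both kinds of offspring received normal chow after weaning, so the diets differed through the milk. In the paper's model, pups of ND mothers were moved after birth to the mothers on palmitic acid, and no such move is described for the ND group. The milk diet and the change of mother can therefore not be told apart here. ILC3s were sorted with surface markers that include Thy1.2, CD25 and Nrp1 from the intraepithelial layer (IEL) and the lamina propria (LP), which gave ND IEL, PA IEL, ND LP and PA LP groups of 3 libraries each. The labels do not say whether libraries of a group came from separate animals, or whether IEL and LP libraries of the same number came from 1 animal, so the p-values below measure only the spread between these libraries.

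Annexins are cytosolic proteins that bind negatively charged phospholipids when calcium rises, and they take part in membrane repair, vesicle traffic and the attachment of the cytoskeleton to membranes. Several of them pair with small calcium-binding S100 proteins, and annexin A1 can also act outside the cell through formyl peptide receptors to limit inflammation. In the gut, annexins A2, A4 and A13 are well known from epithelial cells, and A1, A3 and A5 are found in many myeloid and stromal cells as well as in lymphocytes.

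Deposited read totals after scaling ranged from 9376529 to 11710874 per library, but the number of genes at an FPKM of 1 or more ranged from 4390 to 11378. PA IEL replicate 2, with 4390 genes, and PA LP replicate 2, with 5637, were the sparsest, followed by ND IEL replicate 2 with 7863. Of 16 genes that mark the sort or the ILC3 type, 15 lay under an FPKM of 1 in PA IEL replicate 2, 13 in PA LP replicate 2, 11 in ND IEL replicate 2 and 10 in PA LP replicate 1, against 0 to 4 in the other libraries. The ILC3 label is therefore weakly marked in those 4 libraries, and results that rest on the sparsest pair are given with and without it. Together, 13 pan-epithelial genes, among them Epcam and Krt8, took 0.0503% to 1.62% of all FPKM and were detected in every library. A separate list of 12 enterocyte genes took 2.18% to 10.4% in ND IEL, with the highest share in replicate 2, and 0.581% to 6.60% in PA IEL. It took 0.0212% to 0.421% in ND LP and 0.0066% to 0.0795% in PA LP. In such bulk samples, fewer cells of a type and less RNA per cell cannot be told apart.

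The genes lie on 8 chromosomes of the GRCm38 (mm10) assembly. GENCODE places Anxa1 at chr19:20373428-20390944, Anxa2 at chr9:69453620-69491795, Anxa3 at chr5:96793339-96845966, Anxa4 at chr6:86736840-86793584 and Anxa5 at chr3:36448923-36475894. Anxa6 is at chr11:54979108-55033445, Anxa7 at chr14:20455260-20480133, Anxa11 at chr14:25842156-25886804 and Anxa13 at chr15:58341471-58389244. Anxa2, Anxa3 and Anxa11 are on the plus strand and the others on the minus strand. All but Anxa13 are annotated as protein coding, and Anxa13 is annotated as a processed transcript with a tag for a reference genome error. RefSeq windows before the start site were at hand for 6 of the 9 members, and not for Anxa3, Anxa6 and Anxa13. The bases just upstream of Anxa2 and Anxa4 are printed because these were the most abundant annexins in the ND IEL libraries, one of them at a like level in both layers and the other not. They are RefSeq sequence of GRCm38.p6, Anxa2 from chr9:69453433-69453619 on the plus strand and Anxa4 from chr6:86793585-86793834 on the minus strand, each written 5′ to 3′ up to the last base before the annotated gene, with motif matches in capitals.
Anxa2: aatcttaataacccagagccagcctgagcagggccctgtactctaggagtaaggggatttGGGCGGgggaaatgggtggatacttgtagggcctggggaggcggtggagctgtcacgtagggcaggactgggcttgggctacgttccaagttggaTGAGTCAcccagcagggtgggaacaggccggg
Anxa4: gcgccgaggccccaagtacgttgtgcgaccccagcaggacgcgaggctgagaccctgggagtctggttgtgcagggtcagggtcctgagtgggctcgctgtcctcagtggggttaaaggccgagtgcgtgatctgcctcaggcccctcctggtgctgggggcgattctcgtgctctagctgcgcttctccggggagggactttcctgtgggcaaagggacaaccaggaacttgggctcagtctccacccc
The motifs searched, on both strands, were TATAAA of the TATA box, CCAAT of the CCAAT box, GGGCGG of the GC box and TGANTCA of AP-1 factors, and in the printed stretches no match overlapped another. The Anxa2 stretch held GGGCGG once, 127 to 122 bases before the gene, and TGANTCA once, 32 to 26 bases before it, and the Anxa4 stretch held none of these letters. Over the 250 bases upstream of all 32851 promoters in the RefSeq table, TATAAA was present in 12.4%, CCAAT in 33.8%, GGGCGG in 32.7% and TGANTCA in 6.75%. Among the 6 members with a window, TATAAA was found for Anxa1 and for Anxa2, whose match lies in the part of its window that is not printed, GGGCGG for Anxa2, Anxa7 and Anxa11, TGANTCA for Anxa2 alone and CCAAT for none.

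In ND IEL ILC3s, Anxa4 and Anxa2 dominated the annexin RNA. Mean FPKM was 778.5 ± 500.6 for Anxa4 and 599.6 ± 89.2 for Anxa2 (SD, n = 3 libraries, as for all group means below), and Anxa13 followed at 123 ± 21.2. The ranges of Anxa4 and Anxa2 overlapped, while all 3 values of Anxa2 lay above those of Anxa13 and all of Anxa13 above those of Anxa5, at 47.9 ± 9.54. Anxa6 at 36.4 ± 4.58, Anxa11 at 21.9 ± 3.72, Anxa7 at 21.1 ± 19.7 and Anxa1 at 11.1 ± 8.14 came next, with Anxa3 lowest at 1.18 ± 1.91. In ND LP the order was different, with Anxa2 at 570.3 ± 140.6 above Anxa5 at 201.9 ± 97.0, Anxa4 at 188.4 ± 73.2, Anxa1 at 134.4 ± 28.2 and Anxa3 at 96.8 ± 16.7. The Anxa2 values there did not overlap those of Anxa5, and those of Anxa3 did not overlap those of Anxa6 at 59.8 ± 17.8, whereas the neighbours from Anxa5 to Anxa3 were not separated.

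The order was less settled in the PA milk groups. In PA IEL, Anxa2 at 384.1 ± 395.6 and Anxa4 at 214.9 ± 155.1 still led, followed by Anxa1 at 107.6 ± 117.3 and Anxa5 at 106.9 ± 34.9, and the only neighbours without overlap were Anxa11 at 20.4 ± 13.3 and Anxa3 at 0.0491 ± 0.0850. In PA LP, Anxa1 was highest by its mean, at 526.0 ± 608.9, ahead of Anxa2 at 464.8 ± 279.1, and no neighbours in the order were separated. Anxa4 took seventh place there with 47.1 ± 29.4. Of the 108 values of the 9 members, 10 were at or below the FPKM that 3 reads would give: 6 of Anxa3, 2 of Anxa6, 1 of Anxa7 and 1 of Anxa13.

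**Figure D1:**
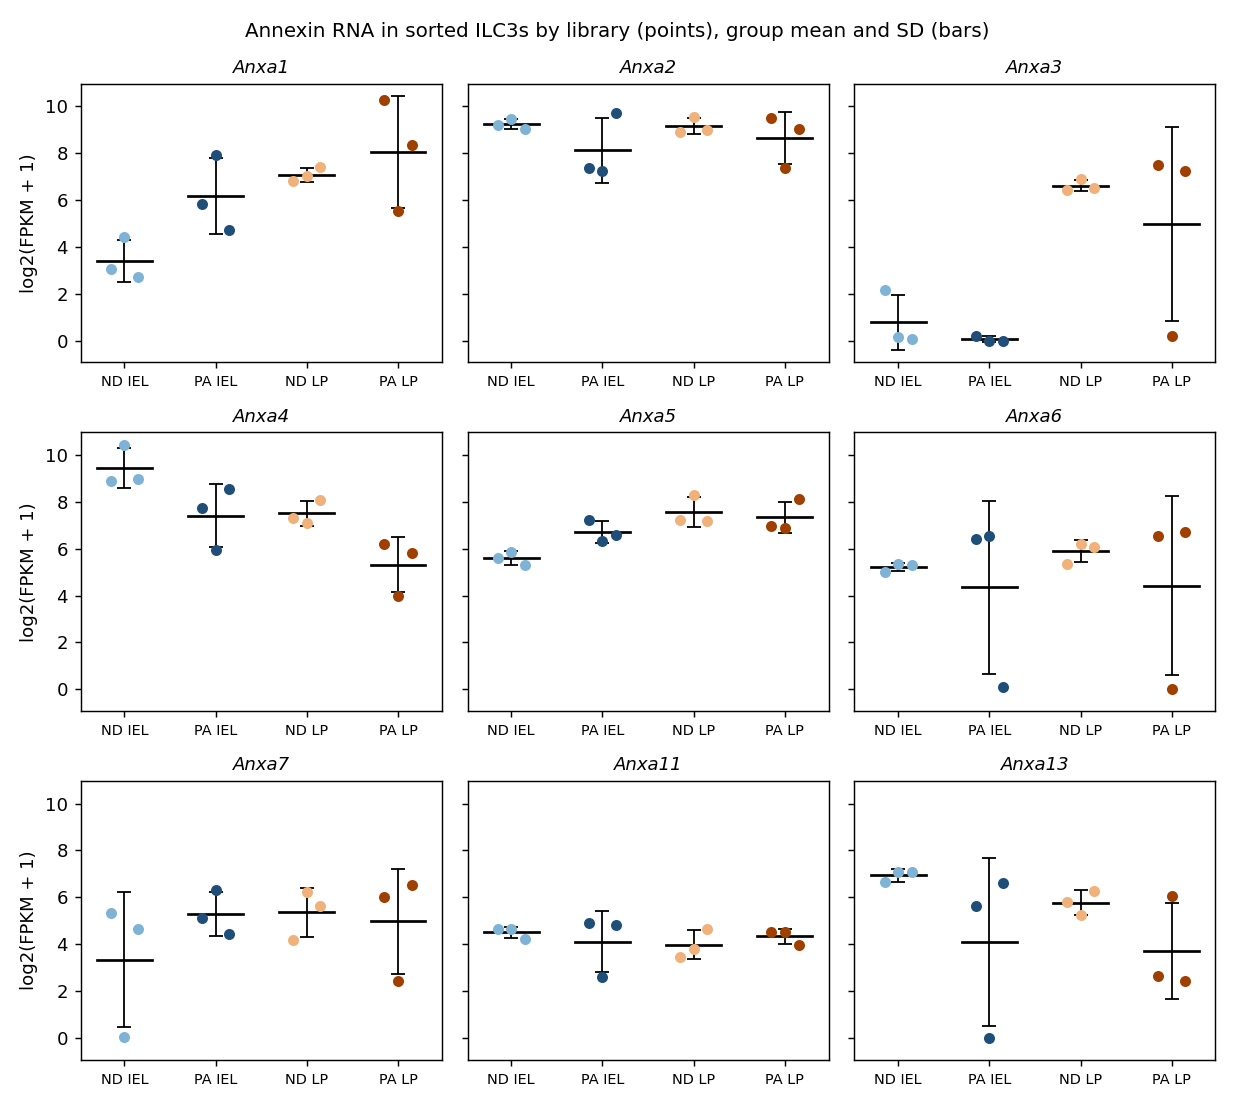
Each panel plots 1 annexin gene, with log2(FPKM + 1) on the vertical axis and the 4 groups on the horizontal axis. Points are libraries, horizontal lines are group means and error bars are SD of the log2 values (n = 3). Anxa4 is lower in the PA milk than in the ND group of each layer, Anxa3 is near 0 in the IEL and in 1 PA LP library, and Anxa2 is high throughout.

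Summed over the 9 genes, annexin FPKM was 1640.6 ± 596.4 in ND IEL, 985.5 ± 427.2 in PA IEL, 1370.6 ± 261.6 in ND LP and 1483 ± 1027 in PA LP. These sums were 0.0567% to 0.341% of all FPKM in a library, with both extremes in PA LP. Anxa4 supplied 36.4%, 58.2% and 39.1% of annexin FPKM in the ND IEL libraries and 27.6%, 8.56% and 25.1% in PA IEL, so the groups did not overlap. Its share was 14.4%, 8.33% and 19.6% in ND LP and 2.88%, 3.37% and 3.60% in PA LP, again without overlap. The share of Anxa1 ran the other way in the IEL, from 0.424% to 0.877% in ND and from 1.71% to 34.3% in PA milk. In the LP, Anxa1 took 7.93% to 11.9% in ND and 48.7%, 10.3% and 21.1% in PA milk, which overlapped. Anxa2 supplied 20.9% to 56.9% in every library.

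**Figure D2:**
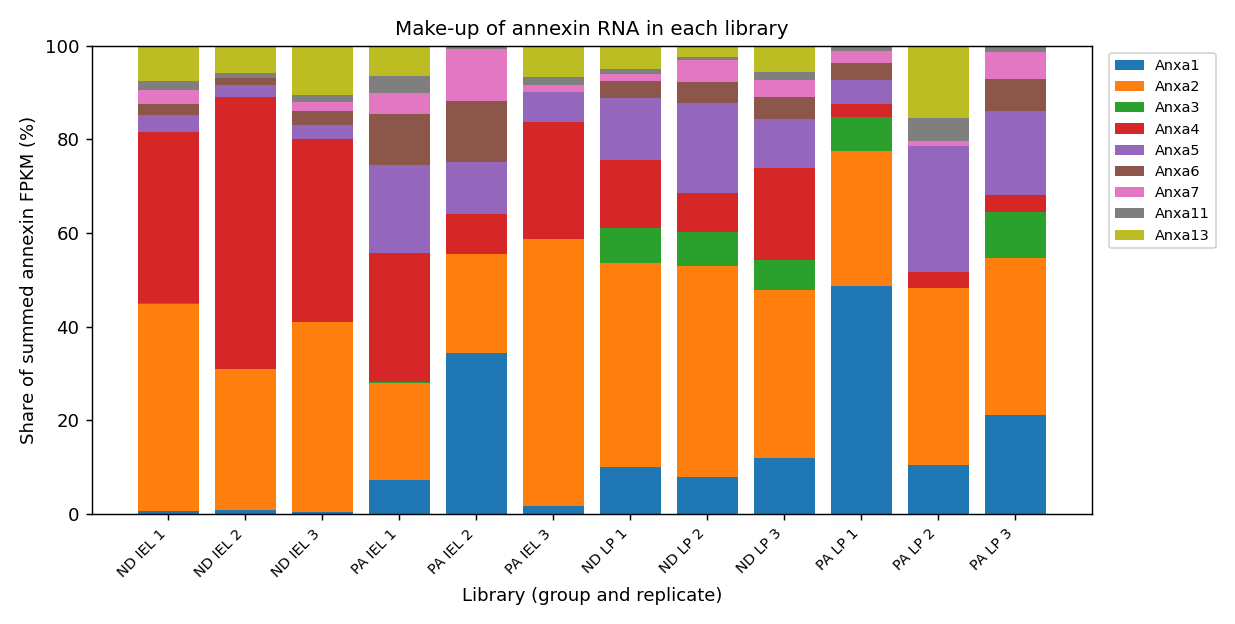
Stacked bars give the share of each annexin gene in the summed annexin FPKM of each of the 12 libraries, in percent from 0 to 100. Anxa4 fills 36.4% to 58.2% of the bar in ND IEL and 2.88% to 3.60% in PA LP, and Anxa1 under 1% in ND IEL and 48.7% in PA LP replicate 1.

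The effect of the milk diet was compared within each layer, as PA milk minus ND on the log2(FPKM + 1) scale, with limma fitted across 12502 genes. In the IEL, 3 of the 9 annexins had higher and 6 lower fitted values in PA milk, with a median of -0.72 against -0.30 for all genes tested. For 4 members the PA milk and ND libraries did not overlap, Anxa1 and Anxa5 on the higher and Anxa4 and Anxa13 on the lower side, where 8.19% of all genes did not overlap, 2.97% higher and 5.22% lower. None of the 9 passed an adjusted p of 0.05 (lowest 0.947), a test that called 0% of all genes. The unadjusted p was below 0.05 for 2 members, Anxa1 and Anxa4, beside 3.58% of all genes, and the fit to scaled counts with voom weights also called 0. In the LP, 2 were higher and 7 lower, with a median of -0.51 against -0.36 for all genes. Anxa4 alone did not overlap, on the lower side, where 6.60% of all genes lay and where 9.57% of genes did not overlap in either direction. No member passed in the LP either (lowest adjusted p 0.979, with 0% of all genes called), 1 had an unadjusted p below 0.05, beside 4.70% of all genes, and the voom fit called 0.

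The layers were compared as IEL minus LP within each diet. Under ND, 4 members were higher and 5 lower in the IEL, with a median of -0.66 against -0.09 for all genes. In 6 of them the layers did not overlap, Anxa4 and Anxa13 higher and Anxa1, Anxa3, Anxa5 and Anxa6 lower in the IEL, where 19.3% of all genes did not overlap, 9.95% higher and 9.34% lower. None passed the adjusted test (lowest 0.298), which called 0.032% of all genes, while 4 had an unadjusted p below 0.05, beside 6.63% of all genes, and voom called 0. Fitted on the ND libraries alone, without the spread of the PA milk groups, Anxa1 (adjusted p = 0.0251) and Anxa3 (adjusted p = 0.0166) passed, as did 0.736% of all genes. Under PA milk, 3 were higher and 6 lower, the median was -0.23 against -0.03, and the layers overlapped for every member, where 8.57% of all genes did not overlap, 4.06% higher and 4.51% lower. None passed (lowest adjusted p 0.370, with 0.144% of genes called), 2 had an unadjusted p below 0.05, beside 10.6% of all genes, and voom called 0. The layer comparisons use the libraries of the diet comparisons, so the 4 sets of values are not separate evidence.

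Whether the diet effect differed between layers was tested as the LP effect minus the IEL effect. None of the 9 members passed with limma (adjusted p 1 for each, with 0% of all genes called), none had an unadjusted p below 0.05, beside 2.34% of all genes, and voom called 0. Anxa5, with a difference of -1.35 (SE 0.89), came nearest. A difference in diet effect between the layers was therefore not detected for any annexin at this spread. With 3 libraries against 3, the two-sided exact permutation test of 1 gene cannot give a p below 0.1, which is the value for every member whose groups did not overlap.

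**Figure D3:**
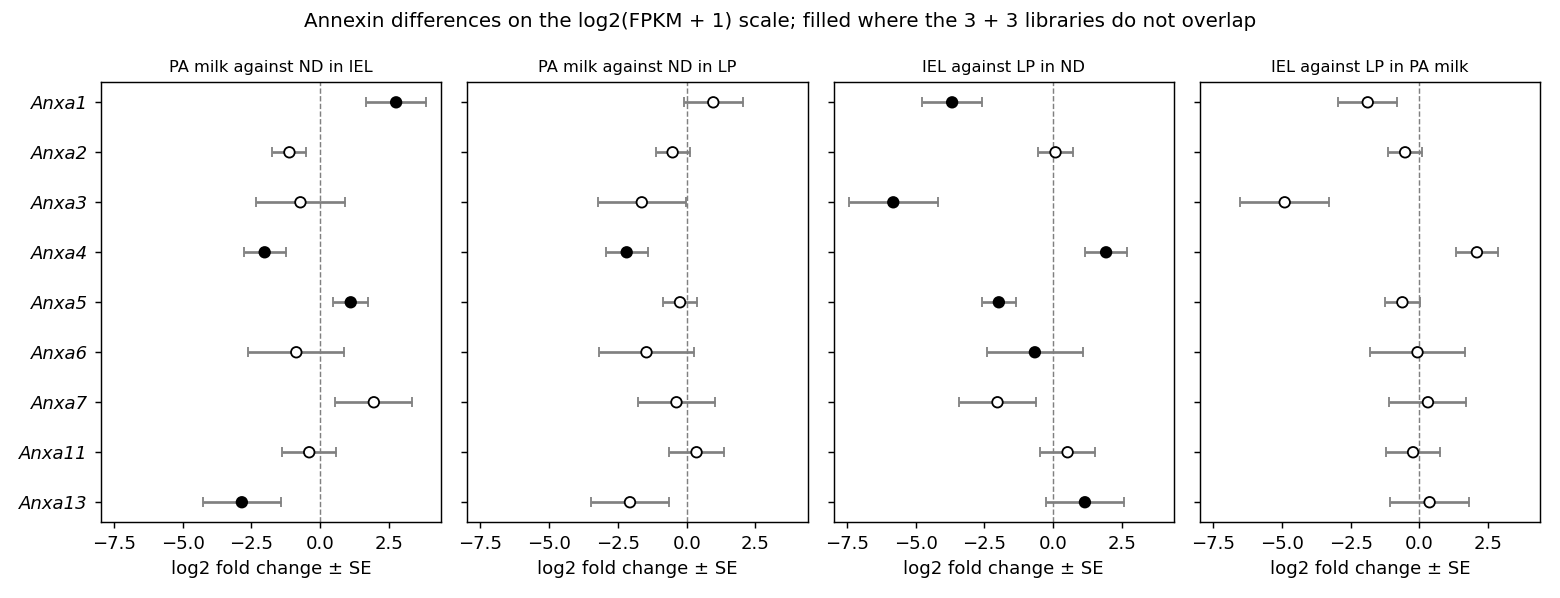
Points give the log2 fold change of the 9 annexin genes in 4 comparisons, with SE from limma as error bars, and are filled where the libraries of the compared groups do not overlap. Filled points number 4 for diet in the IEL, 1 for diet in the LP, 6 for layer under ND and 0 for layer under PA milk.

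Anxa4 encodes a membrane-binding annexin that is abundant in secretory and absorptive epithelia. Its FPKM was 474, 1356 and 505 in ND IEL replicates 1 to 3 and 214, 60.4 and 371 in PA IEL. It was 158, 135 and 272 in ND LP and 71.7, 14.6 and 55.0 in PA LP. Every PA milk library lay below every ND library of its layer, and the ND IEL libraries lay above all 9 others. The PA milk mean was 0.276 of the ND mean in the IEL, a log2 change of -2.02 (SE 0.76, adjusted p = 0.947 by limma). In the LP the ratio was 0.250 and the log2 change -2.18 (SE 0.76, adjusted p = 0.979). Without the sparsest pair of libraries these became -1.29 and -1.50, with adjusted p of 1 and 0.590. The IEL mean was 4.13 times the LP mean under ND (log2 1.93, SE 0.76, adjusted p = 0.597), and under PA milk the log2 difference was 2.09 (SE 0.76, adjusted p = 0.404) with overlap.

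Anxa13 encodes an annexin known for its restriction to intestinal and kidney epithelium and for its role in apical vesicle traffic. It was at 98.6, 134 and 137 FPKM in ND IEL and at 49.2, 0 and 96.9 in PA IEL. In the LP it was at 55.5, 36.7 and 77.3 under ND and at 5.37, 66.6 and 4.35 under PA milk. The ND IEL libraries were above all others, and a wide spread in both PA milk groups came from PA IEL replicate 2 at the low end and PA LP replicate 2 at the high end. Diet gave a log2 change of -2.85 (SE 1.43) in the IEL and -2.06 (SE 1.43) in the LP. Without the sparsest pair the IEL change was -0.81 and the LP change -3.24 (adjusted p = 0.0919), and the difference between layers under PA milk moved from 0.37 to 3.59 (adjusted p = 0.00889), a setting in which 2.51% of all genes passed.

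Fitted values of pan-epithelial and enterocyte markers mostly had the sign of these annexins, both for diet and between the layers. Goblet markers did so for diet in both layers and Paneth markers for diet in the IEL, but neither list did so between the layers. The 13 pan-epithelial genes took 1.623%, 1.024% and 1.22% of all FPKM in ND IEL and 0.757%, 0.149% and 1.35% in PA IEL. They took 0.392%, 0.357% and 0.819% in ND LP and 0.156%, 0.237% and 0.0503% in PA LP, and none of the 13 was at 0 throughout a group. Within PA IEL and within ND LP, the libraries had the same order by this share and by Anxa4. Within ND IEL, replicate 2 had the lowest pan-epithelial share and the highest Anxa4, and within PA LP, replicate 2 had the highest pan-epithelial share and the lowest Anxa4. Fitted values were lower in PA milk for 12 of 13 in the IEL, with a median of -2.12, and for 13 of 13 in the LP, with a median of -2.0, and they were higher in the IEL than in the LP for 12 of 13 under ND and 9 of 13 under PA milk. The 12 enterocyte genes were all higher in the IEL under both diets, with medians of 4.73 and 5.10. For diet, 11 of the 12 were lower in PA milk in the IEL and all 12 in the LP, with medians of -1.43 and -1.42. The enterocyte share was 2.18%, 10.43% and 3.27% in ND IEL and 0.906%, 0.581% and 6.60% in PA IEL, in both groups the order of Anxa4. It was 0.0212%, 0.421% and 0.132% in ND LP and 0.0795%, 0.0659% and 0.0066% in PA LP, in neither group the order of Anxa4. Of 6 goblet genes, 0 were higher in the IEL under ND and 1 under PA milk, with medians of -3.51 and -1.05, and of 6 Paneth genes 2 and 0, with medians of -0.88 and -3.74. For diet, the goblet medians were -3.05 in the IEL and -5.15 in the LP, and the Paneth medians -3.50 and -0.18. The part of these cells in the Anxa4 and Anxa13 values was not tested.

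**Figure D4:**
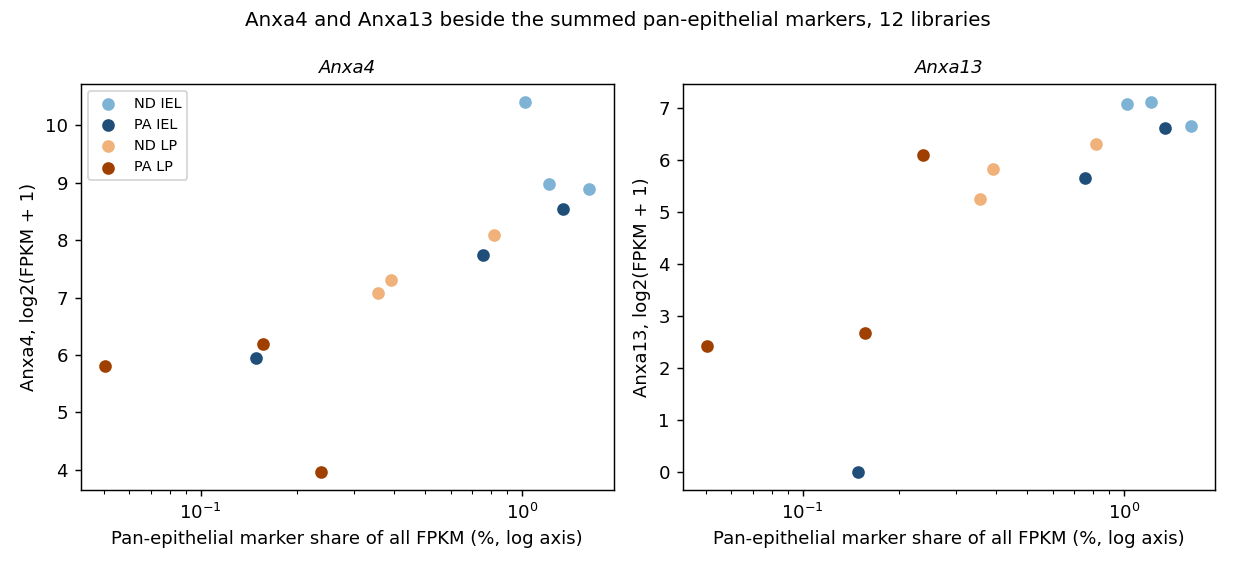
Each point is 1 of 12 libraries, with the summed share of 13 pan-epithelial markers in all FPKM on a log axis and log2(FPKM + 1) of Anxa4 (left) or Anxa13 (right) on the vertical axis. Libraries with marker shares above 1% have Anxa4 at 371 to 1356 FPKM, and the 4 libraries under 0.3% include the lowest value of each gene. Among those 4, PA LP replicate 2 has the lowest Anxa4 but Anxa13 at 66.6 FPKM. This is above the 55.5 and 36.7 of ND LP replicates 1 and 2, whose marker shares are higher.

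Anxa1 encodes the annexin that mediates part of the anti-inflammatory action of glucocorticoids. Its FPKM was 7.37, 20.4 and 5.47 in ND IEL and 55.6, 242 and 25.3 in PA IEL. It was 109, 129 and 165 in ND LP and 1211, 44.9 and 323 in PA LP. All PA IEL libraries lay above all ND IEL libraries, and all ND LP libraries above ND IEL, but PA LP spanned the ND LP range. The PA IEL mean was 9.70 times the ND IEL mean, a log2 change of 2.76 (SE 1.08, adjusted p = 0.947), and 1.88 without the sparsest pair. In the LP the change was 0.97 (SE 1.08) and it turned to -0.13 when PA LP replicate 1 was left out. The layer difference under ND was -3.67 (SE 1.08, adjusted p = 0.327), with an ND IEL mean 0.0825 of the ND LP mean. Both libraries of the sparsest pair are PA milk libraries, so leaving them out could not change that difference, only the spread shared by the groups. Its adjusted p was then 0.0182, where 0.904% of all genes passed. The difference under PA milk went from -1.88 to -4.02 (adjusted p = 0.0197), where 2.51% of all genes passed.

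Anxa5, the annexin used as a probe for phosphatidylserine on dying cells, was at 48.1, 57.3 and 38.3 FPKM in ND IEL and at 146, 79.0 and 95.6 in PA IEL. The LP libraries held 147, 314 and 145 under ND and 125, 118 and 275 under PA milk. ND IEL was thus below all 9 other libraries, and the LP groups overlapped each other. The IEL diet change was 1.11 (SE 0.63, adjusted p = 0.947), or a mean 2.23 times as high, against -0.24 in the LP. Under ND the IEL mean was 0.237 of the LP mean (log2 -1.97, SE 0.63, adjusted p = 0.383). Under PA milk the layer difference was -0.62.

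Anxa3 encodes an annexin found in neutrophils and in a number of other cell types. It was at 3.38, 0.112 and 0.0467 FPKM in ND IEL and at 0.147, 0 and 0 in PA IEL, where about 2 reads were counted over the 3 libraries. The LP libraries held 84.3, 116 and 90.2 under ND and 180, 0.131 and 148 under PA milk. It was therefore near 0 in the IEL and clearly present in 5 of 6 LP libraries, the exception being the sparse PA LP replicate 2. The difference between layers was -5.81 under ND (SE 1.61, adjusted p = 0.298) and -4.90 under PA milk (SE 1.61, adjusted p = 0.370). Under PA milk the LP mean was 2230 times the IEL mean, with a 95% counting interval of 617 to 18410 that covers counting error only, a ratio that rests on these 2 reads in replicate 1. Leaving out PA LP replicate 2 alone removed no ND library, so the ND difference could not change, only the spread shared by the groups. The adjusted p under ND was then 0.0132, where 0.52% of all genes passed. Under PA milk the difference was -7.29 (adjusted p = 0.00269), where 2.31% of all genes passed. Diet gave -0.72 (SE 1.61) in the IEL, where most libraries are at or below 3 reads, and -1.63 (SE 1.61) in the LP, which became 0.76 without the sparsest pair.

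Stromal and endothelial markers differed between the layers too, while other lists were less uniform. Of 9 macrophage genes, 1 was higher and 8 lower in the IEL under ND (median -0.58), and 3 and 6 under PA milk (median -0.09). Of 6 B cell genes, 0 were higher and 6 lower under ND (median -3.32), and 4 and 2 under PA milk (median 0.16). All 8 stromal and endothelial genes were lower in the IEL than in the LP under both diets, with medians of -3.28 and -3.23. Their summed share was 0.000274% to 0.00171% in ND IEL, 0.000992% to 0.00403% in PA IEL, 0.0126% to 0.134% in ND LP and 0.0014% to 0.356% in PA LP. The lowest PA LP value was in replicate 2, a library of the sparsest pair in which Anxa3 was nearly absent. By this share the PA LP libraries had the order of Anxa3. The ND LP libraries, at 0.0126%, 0.0583% and 0.134% in replicates 1 to 3, did not. Of the 8, 2 were at 0 throughout ND IEL and 1 throughout PA IEL. The 6 neutrophil genes split into 3 higher and 3 lower in the IEL under both diets, with medians of -0.20 and 0.0. For diet they were higher in PA milk for 5 of 6 in the IEL, with a median of 1.20, and for 4 of 6 in the LP, with a median of 1.34. Their share was 0.0130%, 0.0457% and 0.00586% in ND IEL, 0.0517%, 0.204% and 0.0442% in PA IEL, 0.0383%, 0.0158% and 0.0264% in ND LP and 0.0868%, 0.161% and 0.0184% in PA LP. The library with the highest share had the highest Anxa1 of its group in both IEL groups and the lowest in both LP groups. Their part in the Anxa1, Anxa3 and Anxa5 values was not tested.

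Anxa2, whose protein forms a heterotetramer with S100A10 at the plasma membrane, was at a like level in all 6 ND libraries. Its FPKM was 577, 698 and 524 in ND IEL and 480, 732 and 499 in ND LP, with a layer difference of 0.09 (SE 0.62). PA IEL held 161, 150 and 841, and PA LP held 717, 165 and 513. PA IEL replicates 1 and 2 and PA LP replicate 2 were thus at 150 to 165, below every ND library. Both of the sparsest libraries are among them. The other PA milk libraries reached the ND level or passed it. The diet change was -1.12 (SE 0.62, adjusted p = 0.947) in the IEL and -0.51 in the LP. Without the sparsest pair these became -0.69 and 0.12.

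Anxa6 encodes a large annexin with a doubled core that links membranes to actin and cholesterol transport. It was at 31.1, 39.2 and 38.8 FPKM in ND IEL and at 39.6, 73.2 and 66.8 in ND LP, close to each other but without overlap, with a difference of -0.66 (SE 1.74). PA IEL held 84.3, 91.7 and 0.0643, and PA LP held 92.6, 0 and 103. In each PA milk group, a pair of libraries was above every ND library and the remaining one was at or under 3 reads. The fitted changes of -0.87 in the IEL and -1.46 in the LP therefore rest on 1 library each: they became 1.26 without PA IEL replicate 3 and 0.74 without PA LP replicate 2.

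Anxa7, an annexin with a long amino-terminal tail that promotes membrane fusion, varied within every group. Its FPKM was 39.0, 0.0295 and 24.2 in ND IEL, 34.1, 77.6 and 20.6 in PA IEL, 17.4, 74.2 and 48.8 in ND LP and 63.8, 4.35 and 90.3 in PA LP. The groups overlapped in every comparison. The IEL diet change of 1.95 (SE 1.4) ranged between 0.30 and 2.94 when single libraries were left out. Anxa11, which also carries a long amino-terminal tail and couples RNA granules to lysosomes, stayed between 5.09 and 28.9 FPKM. It was at 24.2, 24.0 and 17.7 in ND IEL, 28.9, 5.09 and 27.3 in PA IEL, 10.02, 12.9 and 24.5 in ND LP and 22.0, 21.8 and 14.8 in PA LP. The 4 groups overlapped, with diet changes of -0.40 (SE 0.99) in the IEL and 0.36 in the LP, and layer differences of 0.53 under ND and -0.23 under PA milk.

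Of the 3 annexin genes outside the set, Anxa8 and Anxa10 were listed at 0 in all 12 libraries. Anxa9 had no value above 0 in the LP. Its ND IEL values were 0, 32.6 and 4.81 and its PA IEL values 0.0621, 98.2 and 0, so that replicate 2 was highest under both diets.

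Annexin partners were examined through a list of 32 genes, made up of S100 proteins, formyl peptide receptors, fibrinolysis factors, calpains, membrane-cytoskeleton linkers and glucocorticoid response genes. The list was drawn up with earlier results of these data known. All 32 were in the table, 24 were tested and 5 were at 0 in every library. None of the 24 passed in any comparison with limma, while 2, 0, 5 and 3 had an unadjusted p below 0.05 for diet in the IEL, diet in the LP, layer under ND and layer under PA milk, beside 3.58%, 4.70%, 6.63% and 10.6% of all genes. For the layers under PA milk the voom fit called 1, the calpain subunit gene Capn2, beside 14 of all 12502 genes, and it called 0 partners in the other comparisons. Capn2 was at 0.0687, 0.0489 and 0.0265 FPKM in PA IEL, near 0, and at 42.9, 35.8 and 63.0 in PA LP. Diet in the IEL gave 7 higher and 17 lower, with a median of -0.84 against -0.30 for all genes, and diet in the LP gave 11 higher and 13 lower, with a median of -0.05 against -0.36. The layer comparison gave 10 higher and 14 lower in the IEL under ND, with a median of -0.22 against -0.09, and 6 higher and 17 lower under PA milk, with a median of -0.74 against -0.03. Of the 24, 7 did not overlap between layers under ND, 1 higher and 6 lower in the IEL, and 2 under PA milk, both lower, beside 19.3% and 8.57% of all genes. For diet, 3 did not overlap in the IEL, 1 higher and 2 lower, and 2 in the LP, 1 in each direction, beside 8.19% and 9.57% of all genes.

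S100a11, which encodes the S100 partner of annexin A1, was the tested partner with the lowest adjusted p in both layer comparisons. Its FPKM was 180, 165 and 197 in ND IEL and 441, 608 and 653 in ND LP. PA IEL held 110, 251 and 155 and PA LP held 663, 587 and 942. All 6 IEL libraries were below all 6 LP libraries. The difference was -1.63 under ND (SE 0.43, adjusted p = 0.267) and -2.13 under PA milk (SE 0.43, adjusted p = 0.0740), and both missed the threshold across all genes. Without the sparsest pair of libraries, both from PA milk, the ND difference could not change. It was -1.63 with an adjusted p of 0.031, where 0.904% of all genes passed. The difference under PA milk was then -2.59 (adjusted p = 0.00467), where 2.51% of all genes passed. Diet changes were small, at -0.15 in the IEL and 0.36 in the LP (SE 0.43 for each).

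S100a10, which encodes the partner of annexin A2, ranged from 209 to 1133 FPKM without a layer difference, at 0.51 under ND and 0.00 under PA milk (SE 0.55 for each). S100a4, which encodes a protein of motile cells, was at 37.2, 47.2 and 37.9 in ND IEL and at 67.5, 159 and 107 in PA IEL. In the LP it was at 92.9, 139 and 128 under ND and at 220, 179 and 151 under PA milk. The PA milk libraries were above the ND libraries of their layer without overlap, with changes of 1.35 in the IEL (SE 0.61, adjusted p = 0.947) and 0.61 in the LP (SE 0.61, adjusted p = 0.979). S100a6, a partner of annexins A2, A6 and A11, was at 43.0 to 67.5 in ND IEL and 187 to 307 in ND LP (log2 -2.05, SE 0.82, adjusted p = 0.605), while PA IEL at 46.2 to 342 and PA LP at 51.5 to 356 overlapped.

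**Figure D5:**
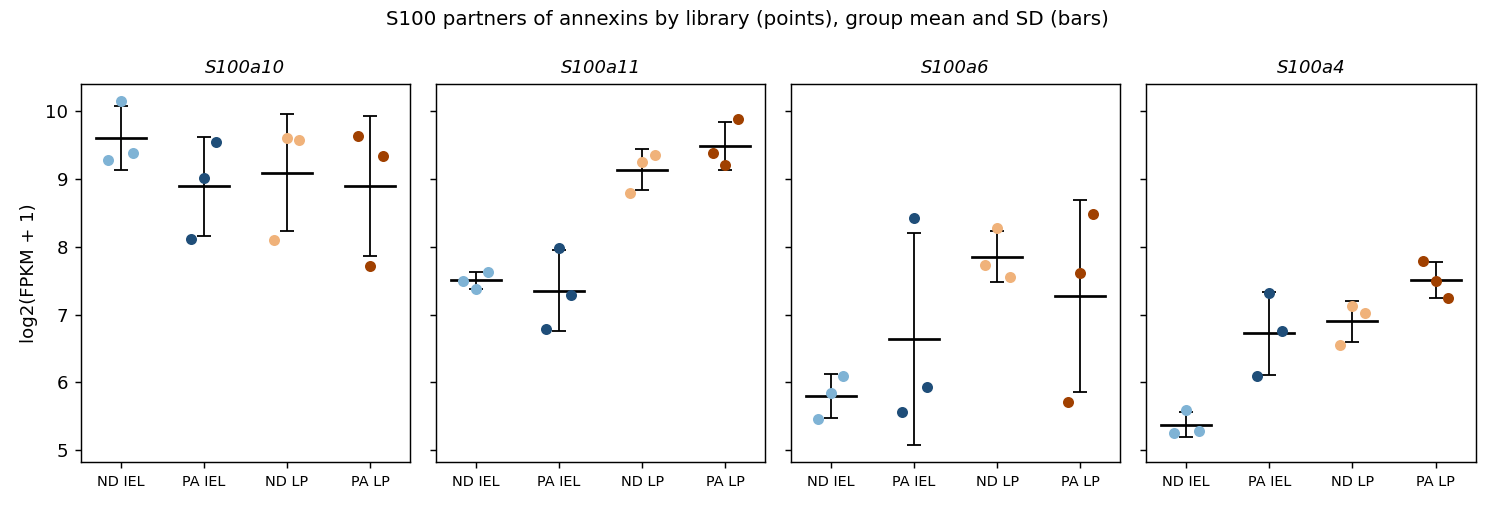
Panels plot log2(FPKM + 1) of S100a10, S100a11, S100a6 and S100a4 for the 3 libraries of each group, with group means as lines and SD as error bars. S100a11 lies below 251 FPKM in all IEL libraries and above 441 in all LP libraries, and S100a10 shows no such step.

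The receptors for extracellular annexin A1 were sparse. Fpr1 was between 0 and 113 FPKM, with 0 in at least 1 library of every group, and Fpr2 was listed at 0 in 11 libraries and at 2.18 in PA LP replicate 3. Ahnak, a giant scaffold bound by the annexin A2 and S100A10 complex, ranged from 0 to 46.4 FPKM and overlapped in every comparison. Pdcd6 and Sri encode penta-EF-hand calcium sensors that bind annexins A7 and A11. Pdcd6 was at 139 to 231 FPKM in ND IEL and 82.5 to 106 in ND LP, without overlap (log2 0.80, SE 1.37, adjusted p = 1), and was at 0.0553 in 1 PA IEL library. Sri was at 89.9 to 230 FPKM in every library, with changes of at most 0.44 in size in the 4 comparisons.

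The genes whose pattern was most like each annexin over the 12 libraries were found by Pearson r of log2(FPKM + 1), as a description. These libraries share their depth and make-up differences, and sparse libraries place many genes at 0 together. Anxa3 was nearest to Fam176a (r = 0.99), Cxcl1 (0.99) and Ehd3 (0.98). Anxa4 was nearest to 0610010O12Rik (0.95), Fam3b (0.94) and Btnl5 (0.94), and Anxa13 to Ankra2 (0.95) and 9130017N09Rik (0.94). Anxa1 was nearest to Gja1 (0.92), Rpl30 (0.89) and Tgtp2 (0.89), and Anxa5 to Arhgap29 (0.88), BC030336 (0.86) and Trim47 (0.85). Anxa2 followed Snapc2 (0.97), 1810055G02Rik (0.96) and Mlycd (0.96), Anxa6 followed B9d2 (0.93), Rwdd4a (0.93) and Dnajc5 (0.92), Anxa7 followed Zhx1 (0.93), Praf2 (0.92) and Sept11 (0.92), and Anxa11 followed Laptm4b (0.92), Net1 (0.91) and Gclm (0.91). No annexin was among the 3 nearest genes of another annexin.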

How the data were processed

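RNA of sorted ILC3s was sequenced after amplification of full-length cDNA with a low-input kit (SMART-Seq v4), without molecular identifiers. The authors mapped reads to mm10 and deposited FPKM per gene, and the submitters' notes name TopHat2 2.1.1, Bowtie2 2.2.8.0, SAMtools 0.1.18 and Cufflinks 2.2.1. A second deposited table holds rounded gene counts after scaling of each library, treated here as signal. Its values came out as whole multiples of 1 read, within 0.05 of a whole number, for 91.2% to 100% of low values, and since some libraries fell short of the 95% set for recovering reads, no count model was run and the table entered through limma-voom as an alternative. Estimated depth was 8820000 to 14540000 reads per library, and intervals and floors of 3 reads cover counting error only.

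Groups came from the sample labels. The test was limma 3.58.1 in R 4.3.3 with a mean-variance trend on log2(FPKM + 1), 4 group means, a filter of 1 FPKM reached in 3 or more libraries, Benjamini-Hochberg adjustment over 12502 genes and a threshold of 0.05. It was tested on simulated data with normal noise of the same spread for all genes. That simulation did not model genes missing from single libraries, so it does not cover such genes here. Fold changes on this scale understate changes of low genes. Tables and plots used Python 3.11.15 with scipy 1.17.1 and matplotlib 3.10.9. The text names all 9 listed annexins, the other annexins by range, the direct partners of annexins and, per annexin, the 3 genes of highest Pearson r, of which 1 is not reported here; cell type markers are given by list. The members and lists were chosen with earlier results of these data known. Alternatives were a pseudocount of 0.1, no filter, scaling to the upper quartile or to 19 leukocyte genes, fits on only the compared groups, a replicate block, voom, each library left out and, added after seeing the data, both sparsest libraries left out.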

Additional observations from a re-analysis of the deposited data

How the results depend on the processing

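Of 306 planned values for single annexins (45 results, libraries left out counted apart), 10 changed sign and 2 passed the threshold. The number of annexins called for the layers under ND rose from 0 to 2 with only the compared groups (Anxa1, adjusted p = 0.0251, and Anxa3, 0.0166) and to 2 without the sparsest pair of libraries, a setting chosen after seeing the data, and under PA milk from 0 to 3 without that pair (Anxa1, Anxa3 and Anxa13). With single libraries left out these counts ran from 0 to 1 in both diets, beside 0 to 65 of all 12502 genes under ND and 1 to 289 under PA milk. Counts of annexins stayed at 0 for diet and its difference between layers. Partners called for the layers under ND rose from 0 to 2 (S100a11 and S100a6) with only the compared groups. They rose to 1 (S100a11) without the sparsest pair. Under PA milk they rose to 1 (Capn2) with voom, beside 14 of all 12502 genes, and to 2 (Capn2 and S100a11) without that pair. For the compared groups and for the pair, the shares of all genes are those given above for the annexins. With single libraries left out, 0 to 2 partners were called. Over all genes the main fit called 4 for the layers under ND and 18 under PA milk, against 0 to 113 and 1 to 314 over the alternatives, 0 to 1 and 0 to 8 for diet in the IEL and the LP, and 0 to 1 for the difference. Called genes split into 1 higher and 3 lower under ND and 11 and 7 under PA milk, and into 1 and 1 and 5 and 5 with leukocyte scaling, which also moved the median of all genes under PA milk from -0.03 to -0.39. Deviations from the group means correlated at -0.031 to 0.06 between same-numbered libraries of the layers and at -0.123 to 0.068 between those of the diets. Such deviations sum to 0 within each group of 3, so these values cannot decide whether same-numbered IEL and LP libraries share an animal. The labels do not say so either, and the main fit used no pairing. The fit with the replicate block called 0 annexins in every comparison, and 0 and 5 genes for the layers under ND and PA milk.

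Signs changed as follows. Leukocyte scaling gave 0.14 for Anxa5 (diet, LP), -0.37 for Anxa7 (layers, PA milk), and 0.49 and 0.27 for the differences of Anxa4 and Anxa6. A pseudocount of 0.1 gave 0.14 for Anxa6 and -0.59 for Anxa13 (layers, PA milk). The voom fit gave 0.43 and -0.94 for these, and 0.40 and 0.21 for the differences of Anxa3 and Anxa4. Without the sparsest pair, diet gave 0.36 for Anxa11 in the IEL, and 0.12, 0.76, 0.74 and 0.91 for Anxa2, Anxa3, Anxa6 and Anxa7 in the LP. The layers under PA milk then gave -1.48 for Anxa7 and 0.61 for Anxa11, and the differences were 0.35 for Anxa1, 1.45 for Anxa3, 2.71 for Anxa6, -0.09 for Anxa11 and -2.43 for Anxa13. With single libraries left out, results that changed sign ran from -1.96 to 1.26 (Anxa6) and -0.79 to 0.36 (Anxa11) for diet in the IEL. For diet in the LP they ran from -0.13 to 2.23 (Anxa1), -0.94 to 0.12 (Anxa2), -2.90 to 0.76 (Anxa3), -0.63 to 0.13 (Anxa5), -2.61 to 0.74 (Anxa6) and -1.14 to 0.91 (Anxa7). For the layers they ran from -0.03 to 0.28 (Anxa2, ND) and, under PA milk, from -2.28 to 2.06 (Anxa6), -0.98 to 1.07 (Anxa7), -0.62 to 0.53 (Anxa11) and -0.90 to 2.41 (Anxa13). The differences ran from -2.18 to 1.48 (Anxa3), -0.89 to 0.52 (Anxa4), -2.72 to 1.61 (Anxa6) and -1.25 to 2.05 (Anxa13). The cause was not tested.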
